A study of Mus musculus with 4 samples.

Results

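The genes encoded by mitochondrial DNA (mtDNA) were described in LSK cells, a bone marrow fraction sorted as negative for lineage markers and positive for Sca-1 and c-Kit, in which hematopoietic stem cells and multipotent progenitors lie. The members were chosen by gene name: 13 protein-coding genes, 2 ribosomal RNA genes and 22 transfer RNA genes. All 37 were found among the 47561 gene symbols of each deposited table, 35 of them under RefSeq-style names (ND1, COX1, TrnL1 and so on) and 2 as mt-Rnr1 and mt-Rnr2. The control mice, Metrn f/f, had floxed Metrn alleles with no driver named and are labelled wild type. In Metrn cKO mice the floxed alleles were combined with LysM, a myeloid driver, so that deletion was directed at macrophages, monocytes and neutrophils. Whether LSK cells themselves were spared was not tested. All animals were C57BL/6 and 12 weeks old, with 2 libraries from 2 mice per genotype, and the series asks how Meteorin from macrophages acts on stem and progenitor cells. Values were taken as FPKM, a level per transcript length and per library, and read totals are unknown, so the precision of each value could not be stated beyond the spread between libraries. Lists of 4 values run in the order Metrn f/f 1, Metrn f/f 2, Metrn cKO 1, Metrn cKO 2, and pairs of values set against each other are Metrn f/f first.

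Mammalian mtDNA is a small circle that is transcribed from both strands as long precursor RNAs. Most mRNAs and rRNAs are flanked by tRNAs, whose excision releases them, and the mature mRNAs receive short poly(A) tails. The proteins are core subunits of respiratory complexes I, III and IV and of ATP synthase, which they form together with many nuclear-encoded subunits. Hematopoietic stem cells are known to rely comparatively little on respiration while quiescent and to need it when they differentiate.

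The 37 genes lay on chromosome M of GRCm38 between positions 1 and 15422, with the same coordinates in GENCODE M21 and RefSeq. All 13 mRNA genes lack introns. The following ends of mRNA genes, from the GENCODE M21 transcripts, are shown because they differ in how much of the stop codon the DNA holds, given in capitals.
COX2: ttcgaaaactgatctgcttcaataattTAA
ND1: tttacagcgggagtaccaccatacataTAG
ND2: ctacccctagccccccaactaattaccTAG
COX3: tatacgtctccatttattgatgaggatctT
ND4: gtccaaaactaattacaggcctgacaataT
CYTB: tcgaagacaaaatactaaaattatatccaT
The last 3 genes, COX3, ND4 and CYTB, ended in the DNA with a lone T and have a length that is not a multiple of 3. For such genes the poly(A) tail is known to complete the stop codon. The other 10 mRNA genes held a full stop codon.

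In 3 pairs of mRNA genes the partners share bases on the same strand, so that fragments from the shared stretch cannot be assigned to 1 gene. ATP6 and COX3 share 1 base. ATP8 and ATP6 share 43 and ND4L and ND4 share 7, in capitals below with 15 bases on either side.
ATP8 and ATP6, chrM:7912-7984, plus strand: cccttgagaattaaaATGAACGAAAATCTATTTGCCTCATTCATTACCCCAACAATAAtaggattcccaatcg
ND4L and ND4, chrM:10152-10188, plus strand: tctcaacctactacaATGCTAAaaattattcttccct
Each of these printed pairs is known to be carried on 1 bicistronic mRNA. A further 2 stretches matter because genes on opposite strands meet there. The end of COX1 runs into the complement of TrnS1 (capitals, past the COX1 stop), and the last 14 bases of ND5 are the complement of the last 14 of ND6 (capitals).
COX1 and TrnS1, chrM:6843-6938, plus strand: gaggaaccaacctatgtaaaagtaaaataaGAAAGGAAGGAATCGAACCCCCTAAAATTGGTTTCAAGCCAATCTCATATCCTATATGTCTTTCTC
ND5 and ND6, chrM:13537-13580, plus strand: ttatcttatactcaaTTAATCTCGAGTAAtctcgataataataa
Whether reads were counted by strand is not given in the sources used here. A value at these places, and that of any other mtDNA gene, may thus hold RNA of either strand.

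The libraries within a genotype differed in cell type markers and in RNAs retained in the nucleus. Summed FPKM of 8 neutrophil markers were 2550, 32529, 58421 and 2002. Likewise, 8 erythroid markers summed to 3976, 37608, 31488 and 3214, 8 B and plasma cell markers to 219, 3468, 10875 and 309, and 8 macrophage and monocyte markers to 51.9, 1015, 207 and 58.9. None of these 32 markers was listed at 0 in any library, and all 8 LSK sort markers were detected in all 4, with sums of 670, 473, 341 and 771. The 2 positive sort markers did not run alike. Kit was at 108, 24.8, 25.9 and 116 FPKM, and Ly6a, the Sca-1 gene, at 37.2, 83.2, 48.4 and 38.2. The 6 T and NK cell markers summed to 150, 257, 179 and 145, of which Nkg7 alone made up 149, 248, 170 and 144. Cd3e and Ncr1 were at 0 in Metrn cKO 2 and Cd3d at 0 in Metrn f/f 1. The 4 megakaryocyte markers summed to 33.9, 86.9, 20.4 and 30.1. Metrn itself was at 29.3, 66.3, 42.3 and 36.7 FPKM, and Lyz2, the gene behind the LysM driver, at 290, 2406, 2904 and 245. The 5 RNAs listed as retained in the nucleus summed to 365, 40.8, 61.4 and 332. Malat1 was at 318, 17.0, 35.4 and 287 FPKM and Neat1 at 46.2, 23.7, 25.8 and 42.8. By the neutrophil, erythroid, B and plasma cell, macrophage and T and NK cell sums, Metrn f/f 2 and Metrn cKO 1 were the higher library of each genotype. By Kit and the nuclear-retained sum they were the lower library, and the megakaryocyte sum was lowest in Metrn cKO 1. The part of these transcripts in the mtDNA results was not tested.

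As a whole, the mtDNA genes took 3.28%, 2.94%, 3.12% and 3.32% of all FPKM. The Metrn f/f mean was 3.11% ± 0.244 and the Metrn cKO mean 3.22% ± 0.142 (SD, n = 2 per genotype), and the groups overlapped (exact permutation test, 2-sided, p = 0.667, where the smallest p that 2 against 2 allows is 0.333). In a bulk sample, a change in the number of cells with a high mtDNA transcript level and a change in such RNA per cell cannot be told apart. The direction of this difference was not stable: without Metrn f/f 2 it was -0.0641 percentage points. As multiples of the upper quartile of nuclear genes, the mtDNA sum was 539, 830, 768 and 554, which spread more widely and had a mean difference of -24.02. The 13 mRNAs made up most of the mtDNA share, with 2.998%, 2.71%, 2.83% and 3.10% of all FPKM. In FPKM the mRNA sums were 11772, 18175, 15927 and 12816, while the sums over all genes were 392717, 671802, 562401 and 412955, so both quantities were larger in Metrn f/f 2 and Metrn cKO 1.

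By limma, with p adjusted over the 13148 genes that reached 1 FPKM in 2 or more libraries, none of the 37 mtDNA genes differed between the genotypes. All 37 passed that filter. The background was the same: 0 of all tested genes (0%) were called, with a smallest adjusted p of 1.00, and 39 (0.297%) had an unadjusted p under 0.05, among them 2 mtDNA genes, TrnM and TrnQ, of which TrnQ passed the filter only through the Metrn f/f libraries. The median log2 fold change of log2(FPKM + 1), Metrn cKO minus Metrn f/f, was -0.01 for the 13 mRNAs, -0.33 for the 2 rRNAs and -0.35 for the 22 tRNAs, beside 0.07 for all tested genes. The genotypes were separate, with the Metrn cKO values on the upper side, in 1 mtDNA gene, ND6, where 6.31% of all tested genes did so. The Metrn cKO values were on the lower side without overlap in 7 of the 37, all of them tRNAs, where 5.73% of all tested genes did so.

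**Figure D1:**
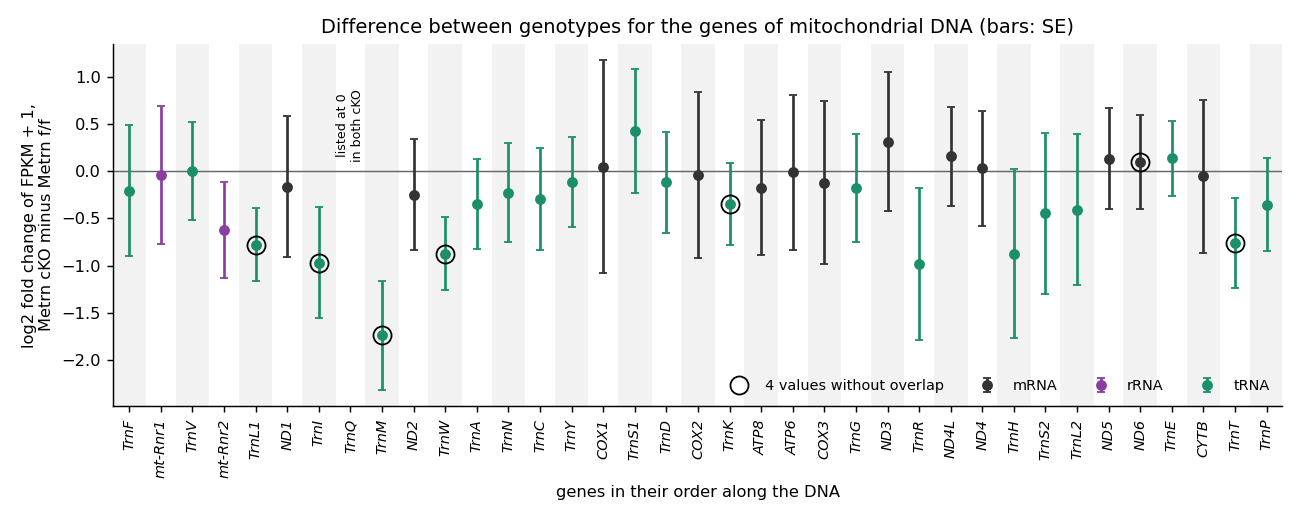
Log2 fold change of FPKM + 1 (Metrn cKO minus Metrn f/f, vertical axis) for the mtDNA genes in their order along the DNA, with bars for limma's SE and rings around genes whose 4 values do not overlap between genotypes. The mRNAs lie between -0.25 and 0.31, and the ringed tRNAs lie below 0. TrnQ, listed at 0 in both Metrn cKO libraries, has no fold change.

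Complex I, the NADH dehydrogenase that feeds electrons into the chain, takes 7 subunits from mtDNA. ND1, a core subunit of its membrane arm, had 959, 1501, 1191 and 965 FPKM. ND2, another membrane subunit, had 427, 677, 527 and 389 FPKM. Both were highest in Metrn f/f 2, and the genotypes overlapped, with log2 fold changes of -0.16 (SE 0.74) for ND1 and -0.25 (SE 0.59) for ND2.

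ND4 and ND5, the membrane subunits that resemble cation antiporters together with ND2, did not move alike. ND4 had 584, 735, 727 and 613 FPKM. ND5, whose gene is the longest of the mitochondrial mRNA genes at 1824 bases, had 467, 341, 421 and 455 FPKM. ND4 was thus higher in Metrn f/f 2 and Metrn cKO 1 than in the other library of each genotype, and ND5 was lower in them. Their log2 fold changes were 0.03 (SE 0.61) and 0.13 (SE 0.53).

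ND4L, a small subunit whose gene overlaps that of ND4 in the stretch printed above, had 381, 391, 488 and 380 FPKM, so only Metrn cKO 1 stood off. The ratio of ND4L to ND4 was 0.653, 0.532, 0.671 and 0.619. ND3, a small subunit at the joint of both arms, was the lowest mRNA in 3 of the 4 libraries, with 107, 234, 375 and 103 FPKM. Its highest value was 3.65 times its lowest, the widest range among the 13 mRNAs, and the values crossed between genotypes (log2 fold change 0.31, SE 0.74).

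ND6 is the only protein gene coded on the opposite strand, and its value was the steadiest of the 13. It had 345, 344, 367 and 369 FPKM, a highest-to-lowest ratio of 1.07. As strand counting is unknown, RNA of the other strand cannot be told apart in this value. The Metrn cKO pair lay above the Metrn f/f pair, by a log2 fold change of 0.09 (SE 0.50, limma adjusted p = 1.00). The ratio of ND5 to ND6, whose ends are complementary over the 14 bases printed above, was 1.35, 0.991, 1.15 and 1.23.

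CYTB, cytochrome b, is the sole mtDNA subunit of complex III. It had 1152, 1878, 1592 and 1261 FPKM, with a Metrn f/f mean of 1515 ± 514 and a Metrn cKO mean of 1427 ± 234 (SD, n = 2 per genotype) and a log2 fold change of -0.05 (SE 0.81). The 2 libraries of each genotype differed by more than the genotype means did.

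Complex IV, cytochrome c oxidase, has its catalytic core from mtDNA. COX1, which carries the oxygen-reducing center, was the most abundant mtDNA transcript in every library, at 3016, 4314, 3992 and 3472 FPKM. It ranked as gene number 2 in Metrn f/f 1 and Metrn cKO 2 and as number 10 in Metrn f/f 2 and Metrn cKO 1. COX2, which accepts electrons from cytochrome c, had 1234, 2367, 2001 and 1384 FPKM. COX3, the third core subunit, had 861, 2184, 1575 and 1010 FPKM, a highest-to-lowest ratio of 2.54. All 3 were lowest in Metrn f/f 1 and highest in Metrn f/f 2, with both Metrn cKO libraries between them. Their log2 fold changes were 0.05 (SE 1.13) for COX1, -0.04 (SE 0.88) for COX2 and -0.12 (SE 0.86) for COX3.

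ATP synthase takes 2 membrane subunits from mtDNA. ATP6, which forms part of the proton path, had 1256, 1854, 1676 and 1363 FPKM. ATP8, a short membrane protein, had 984, 1354, 996 and 1052 FPKM. Although both lie on 1 mRNA, the ratio of ATP8 to ATP6 was 0.783, 0.730, 0.594 and 0.771, lowest in Metrn cKO 1. The log2 fold changes were -0.01 (SE 0.82) for ATP6 and -0.17 (SE 0.72) for ATP8, with overlapping groups.

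**Figure D2:**
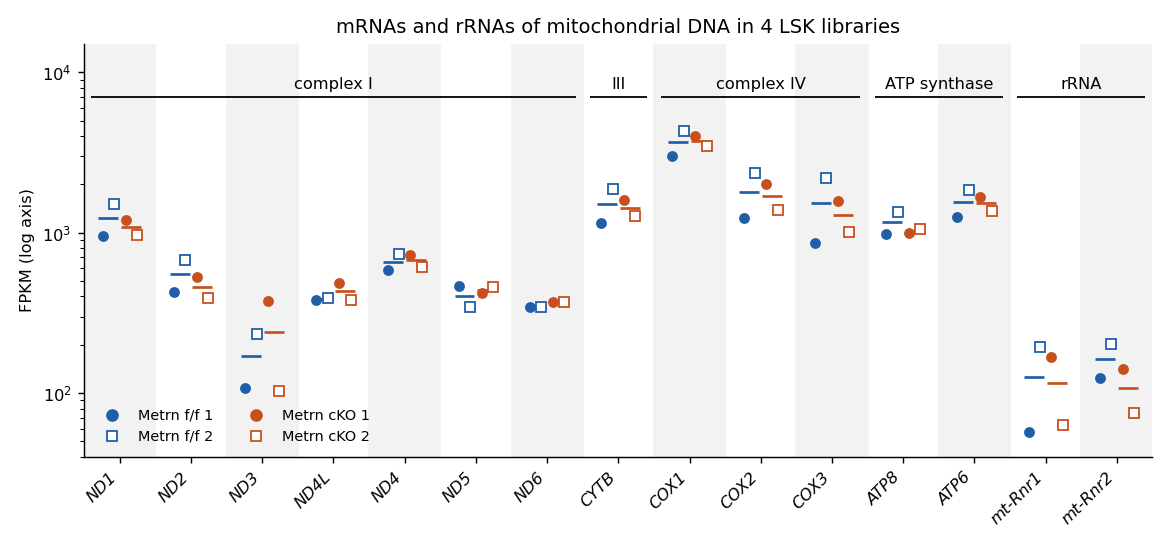
FPKM (log axis) of the 13 mRNAs, grouped by respiratory complex, and of the 2 rRNAs in each of the 4 libraries, with bars for the mean of each genotype. COX1 is the highest in every library, ND6 varies least, and the 2 libraries of a genotype often lie farther apart than the genotype means.

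The spread within a genotype ran the same way for most mRNAs. In 11 of the 13 mRNAs Metrn f/f 2 exceeded Metrn f/f 1, with a median difference of 0.56 on the log2(FPKM + 1) scale, and ND5 and ND6 did not. In 10 of the 13 Metrn cKO 1 exceeded Metrn cKO 2, with a median of 0.30, and ATP8, ND5 and ND6 did not. Over all tested genes the same differences had medians of -0.23 and -0.24, with 42.3% of genes higher in Metrn f/f 2 than in its partner and 35.3% higher in Metrn cKO 1 than in its own. The sign of the fold change turned on leaving out 1 library for each of the 12 mRNAs whose groups overlapped. COX3, for example, went from -0.79 without Metrn f/f 1 to 0.55 without Metrn f/f 2.

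Several of these genes have near-identical nuclear copies. GENCODE M21 lists 7 pseudogenes between positions 24611535 and 24616197 of chromosome 1 (GRCm38, minus strand) that aligned to ND4, ND4L, ND3, COX3, ATP6, COX2 and COX1. The aligned stretches had no mismatch except 1 in 483 bases of COX1. They covered 98.3% or more of ND4L, ND3, COX3, ATP6 and COX2, 63.6% of ND4 and 31.3% of COX1. None of these pseudogenes has a row of its own among the 47561 symbols, and how reads that match both places were treated is not given in the sources used here. Values of these 7 genes are therefore uncertain to that extent. The 43 bases that ATP8 shares with ATP6 can touch on the copy too. Of these 7 genes, ND3 (3.65), COX3 (2.54) and COX2 (1.92) had the widest highest-to-lowest ratios of all mRNAs. ATP6 (1.48), COX1 (1.43), ND4L (1.28) and ND4 (1.26) fell within the range of the mRNAs with no pseudogene listed above. Those were ND2 (1.74), CYTB (1.63), ND1 (1.56), ATP8 (1.38), ND5 (1.37) and ND6 (1.07). The part of the copies in these values was not tested.

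Shares within the mtDNA mRNAs do not depend on nuclear transcripts, apart from such copies. COX1 took 25.6%, 23.7%, 25.1% and 27.1% of the summed FPKM of the 13 mRNAs, and COX2 took 10.5%, 13.03%, 12.6% and 10.8%. COX3 varied most in percentage points, at 7.31%, 12.0%, 9.89% and 7.88%. CYTB took 9.78%, 10.3%, 9.99% and 9.84%, and ATP6 took 10.7%, 10.2%, 10.5% and 10.6%. The genotypes overlapped for each of these 5.

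ND1 and ND2, which lie next to each other with 3 tRNA genes between them, were the mRNAs whose shares did not overlap. ND1 took 8.15% and 8.26% against 7.48% and 7.53%, and ND2 took 3.62% and 3.73% against 3.31% and 3.03%. Each was lower in both Metrn cKO libraries, by 0.70 percentage points for ND1 and by 0.50 for ND2, at the smallest p the design allows (exact permutation test, 2-sided, p = 0.333, adjusted over the 13 mRNAs 1). Exchangeable libraries would separate with probability 0.333 for each mRNA, and ND1 and ND2 among 13 mRNAs do not exceed that rate. In FPKM, a different measure, 6.31% and 5.73% of all tested genes lay above and below without overlap. Leaving out each library gave differences of -0.757 to -0.646 for ND1 and -0.642 to -0.364 for ND2, whose sign is fixed where groups do not overlap. The remaining mRNAs, ATP8, ND3, ND4L, ND4, ND5 and ND6, took between 0.802% and 8.36% and overlapped.

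By composition, Metrn f/f 1 and Metrn cKO 2 were the most alike pair of libraries. Their shares of the 13 mRNAs differed by 2.41 percentage points over the increases alone, and the other 5 pairs differed by 5.33 to 8.77. This pair crosses the genotypes, and the 2 Metrn f/f libraries differed by 8.39 points and the 2 Metrn cKO libraries by 5.86.

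**Figure D3:**
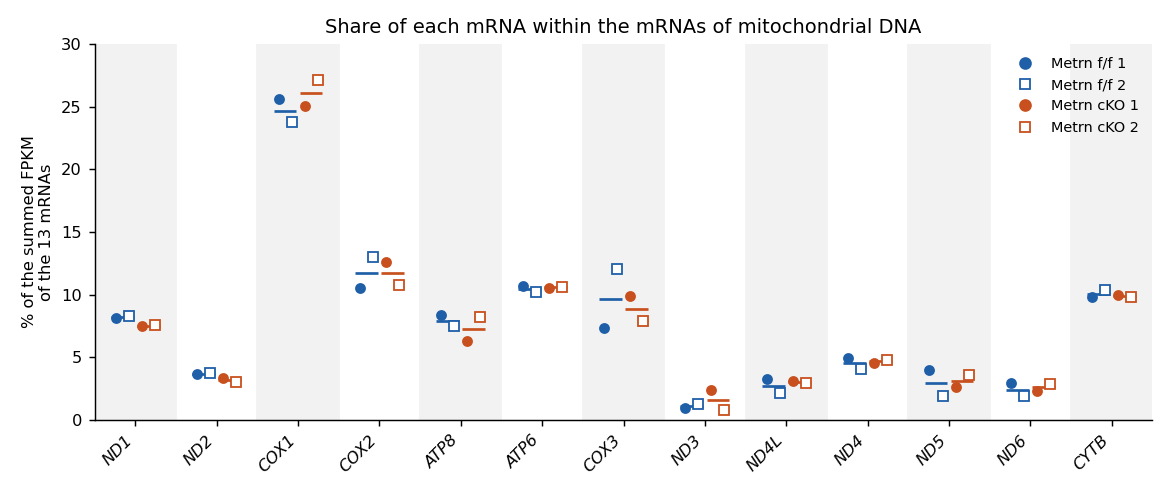
Percent of the summed FPKM of the 13 mtDNA mRNAs taken by each mRNA in each library, with bars for the genotype means. Only ND1 and ND2 do not overlap between genotypes, at 8.15% and 8.26% against 7.48% and 7.53% for ND1. Exchangeable libraries would separate with probability 0.333 for each mRNA. COX3 ranges from 7.31% to 12.0%.

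The 2 rRNAs of the mitochondrial ribosome were low beside the mRNAs. mt-Rnr1, the 12S RNA of the small subunit (positions 70 to 1024), had 57.5, 194, 167 and 63.1 FPKM. mt-Rnr2, the 16S RNA of the large subunit (positions 1094 to 2675), had 124, 203, 141 and 75.1 FPKM. Their sum was 1.55%, 2.18%, 1.94% and 1.08% of the summed FPKM of the mRNAs. Of 13 nuclear RNAs listed as lacking a poly(A) tail, 4 were tested, with 0 called and a median log2 fold change of -0.40. Rn7sk had 11.04, 16.4, 2.62 and 27.8 FPKM, Rpph1 had 3.10, 11.9, 5.48 and 2.69, and Rnu11 had 3.92, 6.18, 3.45 and 4.25. Whether RNA was selected by poly(A) tail or depleted of rRNA is not given in the sources used here. Both rRNAs overlapped between genotypes, with log2 fold changes of -0.04 (SE 0.73) for mt-Rnr1 and -0.62 (SE 0.51) for mt-Rnr2. The ratio of mt-Rnr1 to mt-Rnr2 went from 0.463 in Metrn f/f 1 to 1.18 in Metrn cKO 1, with 0.953 and 0.839 in the other library of each genotype. The sign of the mt-Rnr2 difference held without each library (-1.07 to -0.17), and that of mt-Rnr1 did not.

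The tRNA genes are 59 to 75 bases long, and the FPKM of such short genes can rest on few fragments and can include fragments that reach in from a neighbouring mRNA or from its uncut precursor. The 7 tRNAs whose values did not overlap between genotypes were all lower in Metrn cKO, as were 5.73% of all tested genes. Exchangeable libraries would separate in either direction with probability 0.333 for each gene. Among the 37 mtDNA genes, 1 above and 7 below without overlap do not exceed that rate. One of the 7, TrnQ, passed the filter only through the Metrn f/f libraries. The 7 included the 5 tRNA genes next to ND1 and ND2 (positions 2676 to 5016). These 5 are printed with the anticodon in capitals because the observation rests on them; this grouping was made after the values were seen and carries no test.
TrnL1, chrM:2676-2750, plus strand: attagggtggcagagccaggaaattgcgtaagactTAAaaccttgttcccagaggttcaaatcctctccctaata
TrnI, chrM:3706-3774, plus strand: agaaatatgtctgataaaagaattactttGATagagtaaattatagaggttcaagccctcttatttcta
TrnQ, chrM:3772-3842, minus strand: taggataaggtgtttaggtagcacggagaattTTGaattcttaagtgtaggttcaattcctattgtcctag
TrnM, chrM:3845-3913, plus strand: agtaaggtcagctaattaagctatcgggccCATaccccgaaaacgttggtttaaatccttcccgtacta
TrnW, chrM:4950-5016, plus strand: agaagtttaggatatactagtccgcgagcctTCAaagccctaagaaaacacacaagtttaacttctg
ND1 begins on the base after TrnL1, shares 2 bases with TrnI at its end, and TrnI shares 3 bases with TrnQ on the other strand. ND2 begins on the base after TrnM and shares 2 bases with TrnW.

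TrnL1, the leucine tRNA that reads UUR codons, had 112 and 133 against 72.5 and 68.8 FPKM. The log2 fold change was -0.78 (SE 0.39, limma adjusted p = 1.00). TrnI, for isoleucine, had 8.48 and 4.32 against 1.88 and 3.55 FPKM, a log2 fold change of -0.97 (SE 0.59), which lay between -1.39 (without Metrn f/f 2) and -0.55 (without Metrn f/f 1) on leaving out each library. In both genes the lower values were those of Metrn cKO, narrowly so for TrnI.

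TrnQ, for glutamine, was at 6.51 and 8.40 FPKM with the floxed gene alone and was listed at 0 in both Metrn cKO libraries, so no fold change is given. TrnM, for methionine, had 8.05 and 13.9 against 3.58 and 1.64 FPKM, a log2 fold change of -1.74 (SE 0.58). The unadjusted p by limma was 0.000765 for TrnQ and 0.0215 for TrnM, and the adjusted p was 1.00 for both. TrnQ passed the filter only through the Metrn f/f libraries, where it is high, so its p carries no support. TrnW, for tryptophan, had 29.7 and 29.4 against 17.0 and 14.5 FPKM, a log2 fold change of -0.87 (SE 0.39). These 3 tRNAs were lower in both Metrn cKO libraries, at levels far below those of the mRNAs beside them.

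The tRNAs of this stretch were also set against their neighbours, as a description. The mean FPKM of TrnL1, TrnI, TrnM and TrnW was 5.71% and 4.14% of the mean of ND1 and ND2, against 2.76% and 3.27%. The values do not overlap and were lower in Metrn cKO. The members were chosen on these values, which fixed that direction in part, so the ratio carries no support. TrnL1 weighs most in this mean, at 112 and 133 against 72.5 and 68.8 FPKM. The other 2 tRNAs without overlap lay elsewhere. TrnK, for lysine, had 14.7 and 12.8 against 9.64 and 11.6 FPKM (log2 fold change -0.34, SE 0.43, and -0.22 without Metrn cKO 1), and TrnT, for threonine, had 11.9 and 16.5 against 6.49 and 9.52 FPKM (-0.76, SE 0.48).

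The tRNAs coded on the same strand as most mRNAs, 14 in number, were low as a group, and their sum was 336 and 257 against 148 and 207 FPKM. Without TrnL1, the most abundant of them, the sums were 224 and 124 against 75.4 and 138 FPKM, which overlap. TrnH, TrnS2 and TrnL2 lie side by side between ND4 and ND5 and spread together.
TrnH, chrM:11546-11612, plus strand: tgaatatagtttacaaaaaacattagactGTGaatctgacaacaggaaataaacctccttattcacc
TrnS2, chrM:11613-11671, plus strand: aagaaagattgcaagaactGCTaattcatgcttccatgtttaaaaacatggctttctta
TrnL2, chrM:11671-11741, plus strand: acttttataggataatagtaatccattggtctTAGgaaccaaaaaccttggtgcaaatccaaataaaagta
TrnH, for histidine, had 33.2, 7.70, 3.65 and 18.0 FPKM. TrnS2, the serine tRNA for AGY codons, had 36.9, 8.15, 6.43 and 24.1 FPKM, and TrnL2, the leucine tRNA for CUN codons, had 37.1, 8.78, 7.53 and 23.8 FPKM. Their mean was 6.80%, 1.53%, 1.02% and 4.11% of the mean of ND4 and ND5. All 3 were thus lower in Metrn f/f 2 than in Metrn f/f 1 and lower in Metrn cKO 1 than in Metrn cKO 2, the reverse of most mRNAs, and overlapped between genotypes (log2 fold changes -0.87 with SE 0.90, -0.45 with SE 0.85 and -0.41 with SE 0.80).

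The same reverse order was seen in TrnR, for arginine, between ND3 and ND4L, with 16.4, 3.14, 2.07 and 4.95 FPKM, and in TrnG, for glycine, between COX3 and ND3, with 21.8, 10.8, 8.91 and 20.3 FPKM. The remaining tRNAs of this strand were low. TrnV, for valine, between the rRNA genes, had 3.10, 3.96, 3.25 and 3.82 FPKM, and TrnD, for aspartate, had 2.27, 3.20, 2.92 and 1.98 FPKM. TrnF, for phenylalanine, had 0.550, 1.598 and 2.02 FPKM in the first 3 libraries and was listed at 0 in Metrn cKO 2.

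The 8 tRNAs coded on the opposite strand were more abundant, with sums of 608, 918, 1163 and 553 FPKM. Their sum was 1.81, 3.57, 7.87 and 2.68 times that of the other 14. TrnS1, the serine tRNA for UCN codons, accounted for much of it, at 227, 402, 639 and 258 FPKM (log2 fold change 0.42, SE 0.65). Its gene, which faces the end of COX1 in the stretch printed above, had 7.54%, 9.33%, 16.01% and 7.42% of the FPKM of COX1. Without strand information, the tRNA and COX1 RNA that runs past its stop codon cannot be told apart in these values.

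TrnE, for glutamate, lies directly before ND6 on the same strand, and 3 of its 4 values were nearly equal.
TrnE, chrM:14071-14139, minus strand: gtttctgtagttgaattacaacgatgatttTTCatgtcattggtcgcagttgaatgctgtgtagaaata
It had 111, 111, 135 and 111 FPKM, or 0.321, 0.324, 0.368 and 0.300 times the level of ND6. TrnA, TrnN, TrnC and TrnY, for alanine, asparagine, cysteine and tyrosine, form a cluster just before COX1 on the other strand. TrnA had 52.2, 75.2, 68.5 and 34.7 FPKM and TrnN had 65.8, 102, 104 and 46.4. TrnC had 66.9, 95.0, 103 and 40.8 FPKM and TrnY had 49.3, 59.6, 72.7 and 34.3. All 4 were lowest in Metrn cKO 2, and their log2 fold changes lay between -0.35 and -0.12. TrnP, for proline, had 29.7, 64.4, 40.5 and 28.6 FPKM, highest in Metrn f/f 2.

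Within a genotype, tRNAs grouped by coding strand differed in which library was higher, though each value may hold RNA of either strand. Of the 8 tRNAs on the opposite strand, 8 were higher in Metrn f/f 2 than in Metrn f/f 1, TrnE by only 0.01 on the log2 scale, and 7 were higher in Metrn cKO 1 than in Metrn cKO 2, with TrnQ at 0 in both. Of the 14 on the strand of most mRNAs, 6 and 5 were. The median differences between these libraries on the log2(FPKM + 1) scale were 0.51 and 1.01 for the 8 tRNAs and -0.10 and -0.37 for the 14.

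**Figure D4:**
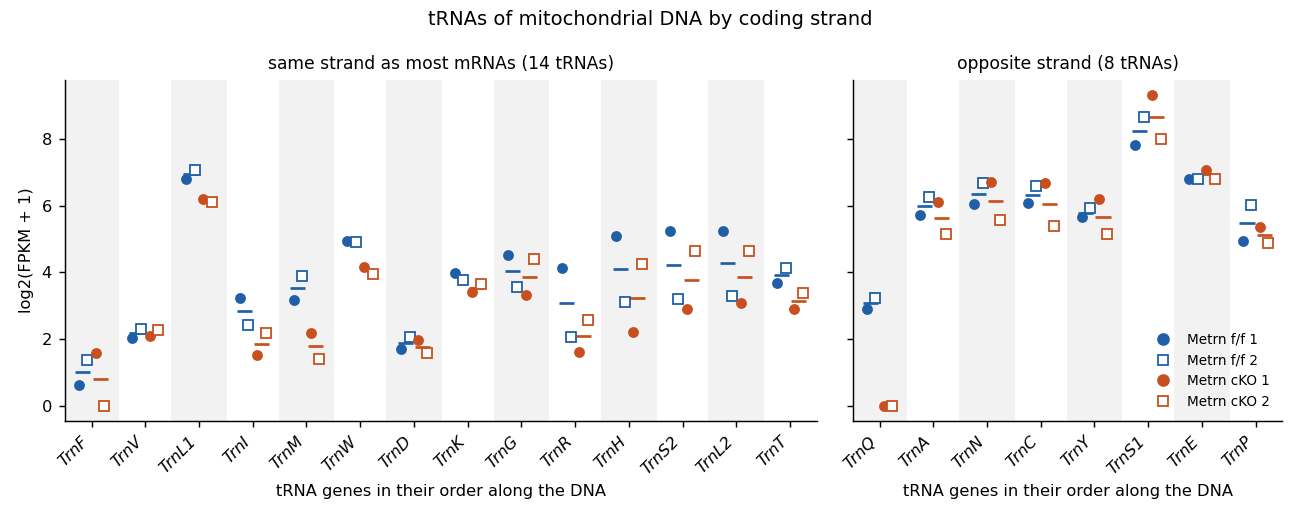
Level of each tRNA as log2(FPKM + 1) in each library, split by coding strand and ordered along the DNA, with bars for the genotype means. TrnL1, TrnI, TrnM, TrnW, TrnK, TrnT and TrnQ have the Metrn cKO points under the Metrn f/f points, and TrnR, TrnH, TrnS2 and TrnL2 lie far apart between the 2 Metrn f/f libraries.

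Nuclear genes that serve mtDNA were taken as lists for context, and 0 of their members passed the test. Of 11 genes for mtDNA transcription, 1 had Metrn cKO values above and 1 below without overlap (background 6.31% and 5.73%), and the median log2 fold change was -0.14. Tfam, which packages mtDNA and starts its transcription, had 12.8, 11.3, 10.8 and 13.2 FPKM. Polrmt, the mitochondrial RNA polymerase, had 12.5, 6.69, 8.004 and 12.0 FPKM, and Mrpl12, a ribosomal protein also described as a partner of that polymerase, had 63.8, 143, 69.2 and 60.7. Polrmt was thus lower where most mtDNA mRNAs were higher in FPKM.

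Of 30 measured genes for mtDNA RNA processing and turnover, 1 lay above and 2 below without overlap (background 6.31% and 5.73%), with a median of -0.05. Hsd17b10, a subunit of mitochondrial RNase P, which cuts tRNAs at their 5′ ends, had 53.1, 112, 53.3 and 61.7 FPKM. Slirp, which stabilizes mtDNA mRNAs, had 23.4, 71.8, 47.2 and 22.8 FPKM, and Rexo2, an RNA exonuclease, had 32.6, 68.3, 42.0 and 38.0. All 3 were highest in Metrn f/f 2. Of 15 measured genes for mtDNA replication and packaging, 1 lay above without overlap (background 6.31%) and the median was 0.01. Atad3a, a membrane ATPase of nucleoids, had 48.4, 31.4, 28.0 and 44.8 FPKM, Ssbp1, the single-strand binding protein, had 26.6, 36.8, 26.2 and 33.7, and Dguok, a nucleoside kinase, had 22.6, 43.2, 26.5 and 29.1.

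Among regulators of mitochondrial biogenesis, 10 of 12 were tested, 2 lay above without overlap (background 6.31%) and the median was 0.19. Myc had 107, 43.9, 49.1 and 106 FPKM, Yy1 had 34.0, 20.1, 26.0 and 35.3, and the deacetylase gene Sirt3 had 48.4, 47.8, 30.2 and 62.9. Of 20 import and mass markers, 1 lay below without overlap (background 5.73%) and the median was -0.12. Slc25a5, an ADP/ATP carrier, had 305, 586, 360 and 311 FPKM, Phb2, a prohibitin, had 127, 178, 131 and 130, and Hspd1, the matrix chaperonin, had 139, 123, 116 and 124. Hspd1 and Phb2 therefore varied less between libraries than most mtDNA mRNAs did.

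Nuclear subunits of the complexes that mtDNA contributes to varied more than the mtDNA subunits. The mean FPKM of 37 nuclear complex I subunits was 52.5, 128, 79.0 and 56.4, and that of the 7 mtDNA subunits was 467, 603, 585 and 468. Their highest-to-lowest ratios were 2.43 and 1.29. In complex IV the nuclear mean, over 10 subunits, was 132, 394, 237 and 141 FPKM and the mtDNA mean was 1704, 2955, 2522 and 1955, with ratios of 2.98 and 1.73. The difference between nuclear and mtDNA subunits in this spread is a description and was not tested.

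The level of mtDNA subunits over nuclear subunits was lowest in Metrn f/f 2 for each complex. It was 8.89, 4.72, 7.41 and 8.29 in complex I, and 15.9, 10.6, 15.1 and 16.4 in complex III with CYTB against 9 nuclear subunits. In complex IV it was 12.9, 7.503, 10.6 and 13.9, and in ATP synthase, with 15 nuclear subunits, 7.78, 5.07, 6.34 and 7.98. The genotypes overlapped in each complex, with exact permutation p of 0.667 or 1 (2-sided). Median log2 fold changes of the nuclear lists were -0.27 for complex I, -0.26 for the 4 subunits of complex II, which has no mtDNA subunit, -0.33 for complex III, -0.36 for complex IV and -0.34 for ATP synthase. No gene of these lists lay above without overlap, 2 of complex I lay below, and none of the others did (background 6.31% and 5.73%).

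The 3 nuclear subunits of each complex with the highest mean show the level at which this ratio is set. Ndufa4, listed with complex I and now described as part of complex IV, had 200, 448, 240 and 207 FPKM, and the accessory subunits Ndufb7 and Ndufa3 had 76.0, 272, 181 and 102 and 64.0, 208, 145 and 73.6. In complex III, Uqcrh had 104, 301, 176 and 113 FPKM, Uqcr10 had 81.4, 273, 142 and 81.8, and Uqcr11 had 74.8, 252, 135 and 68.3. In complex IV, Cox4i1 had 245, 681, 401 and 295 FPKM, Cox6a1 had 219, 707, 365 and 235, and Cox8a had 195, 639, 370 and 195. These small accessory subunits were highest in Metrn f/f 2 throughout.

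The catalytic ATP synthase subunit gene Atp5b had 411, 536, 508 and 427 FPKM, Atp5a1, the other subunit of its catalytic head, had 285, 311, 295 and 286, and Atp5e had 168, 562, 302 and 189. In complex II, Sdhd had 66.1, 132, 83.5 and 71.3 FPKM and Sdhb had 60.2, 125, 84.5 and 61.2. Sdha, the flavoprotein, ran against these with 98.1, 68.1, 81.3 and 100.2 FPKM, lowest in Metrn f/f 2.

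**Figure D5:**
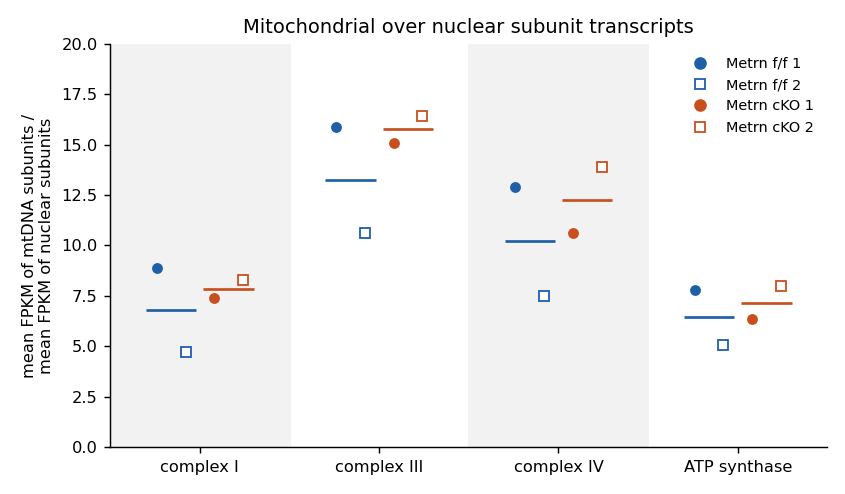
Mean FPKM of the mtDNA subunits divided by the mean FPKM of the nuclear subunits of the same complex (vertical axis) in each library, with bars for the genotype means. Metrn f/f 2 is the lowest library in each complex, for example 4.72 in complex I, and the genotypes overlap.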

How the data were processed

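RNA-seq libraries from sorted LSK cells of 4 mice, 2 per genotype, were used. Total RNA was taken up in TRIZOL, freed of DNA with DNase I and sequenced from standard Illumina libraries, per the labels' protocols. Tools in the submitters' processing notes are HISAT2 2.1 and featureCounts 1.6.4, with bcl2fastq 2.19, cutadapt 1.16.5 and DESeq2 2.11.40.6, on mm10 (GRCm38). No source used here gives the annotation, the strand setting or the normalization. The authors deposited a table per library, whose values were taken as FPKM from their range, decimals and unequal sums. An FPKM value is a share, so very abundant transcripts lower all others.

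The 13148 genes that reached 1 FPKM in 2 or more libraries were tested by limma 3.58.1 in R 4.3.3 on log2(FPKM + 1) with an intensity trend (2-sided, Benjamini-Hochberg adjustment over all of them, threshold 0.05), which was checked on simulated data. Single values per library were compared by exact permutation. All mtDNA genes are named, and of each nuclear list the 3 tested members with the highest mean. Coordinates and sequences are from GENCODE M21. Alternatives were a pseudocount of 0.1, no filter, 2 rescalings, a replicate block, other denominators and leaving out each library. The members and lists were chosen with earlier results of these data known.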

Additional observations from a re-analysis of the deposited data

How the results depend on the processing

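With 2 libraries per genotype and unknown depth, small differences could not be resolved. The calls were 0 of all tested genes and 0 of the mtDNA genes with a pseudocount of 0.1, without the filter, after scaling by the median of ratios and after quantile normalization. Same-numbered libraries deviated in opposite directions from their group means (r = -0.71 over 13148 genes), and the labels do not say whether they are paired. With the replicate block 4 genes were called (3 higher, 1 lower), none of them of mtDNA. With crossed pairing, an alternative chosen after seeing the data, 102 were called (37 higher, 65 lower), 2 of them of mtDNA, TrnM and TrnQ, of which TrnQ passed the filter only through the Metrn f/f libraries, where it is high. Leaving out a library gave 0 to 34 calls over all genes (34 without Metrn cKO 2, 5 without Metrn cKO 1, 0 without either Metrn f/f library) and 0 for mtDNA.

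Quantile normalization turned the log2 fold change to 0.14 for mt-Rnr1, 0.0401 for ND1, 0.21 for COX2, 0.0179 for ATP8, 0.22 for ATP6, 0.15 for COX3 and 0.23 for CYTB, the mRNA median to 0.21 and the median of the mtDNA replication list to -0.0047. Scaling by the median of ratios turned COX1 to -0.015, ND4 to -0.0321 and that list to -0.0325. Over the upper quartile of nuclear genes in place of all FPKM, the mtDNA sum was 539, 830, 768 and 554 multiples, a mean difference of -24.02. Without COX1, the share differences turned to 0.20 percentage points for COX2 and 0.066 for CYTB. The cause of these turns was not tested.

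Leaving out each library gave these ranges of log2 fold change: mt-Rnr1 -0.91 to 0.83, ND1 -0.49 to 0.16, ND2 -0.58 to 0.0852, COX1 -0.21 to 0.30, COX2 -0.51 to 0.43, ATP8 -0.40 to 0.0573, ATP6 -0.29 to 0.27, COX3 -0.79 to 0.55, ND3 -0.62 to 1.24, ND4L -0.0215 to 0.34, ND4 -0.14 to 0.19, ND5 -0.0938 to 0.36 and CYTB -0.41 to 0.30. For tRNAs they were -1.89 to 0.14 for TrnH, -1.47 to 0.58 for TrnS2, -1.39 to 0.57 for TrnL2 and -0.23 to 1.08 for TrnS1. List medians ranged from -0.29 to 0.19 for mtDNA mRNAs, -0.26 to 0.12 for mtDNA transcription, -0.20 to 0.12 for RNA processing, -0.20 to 0.20 for replication, -0.20 to 0.64 for biogenesis regulators and -0.86 to 0.11 for RNAs without a poly(A) tail. For nuclear subunits they ranged from -0.96 to 0.35 for complex I, -0.68 to 0.14 for complex II, -0.90 to 0.36 for complex III, -1.11 to 0.46 for complex IV and -1.0025 to 0.33 for ATP synthase. The mtDNA share of all FPKM ranged from -0.0641 to 0.281 percentage points. Shares within the mRNAs ranged from -1.35 to 1.20 points for COX2, -1.65 to 0.304 for ATP8, -0.0925 to 0.381 for ATP6, -3.13 to 1.57 for COX3, -0.297 to 1.26 for ND3, -0.223 to 0.865 for ND4L, -0.283 to 0.635 for ND4, -0.871 to 1.22 for ND5, -0.337 to 0.697 for ND6 and -0.416 to 0.134 for CYTB. The sign of mt-Rnr2 held without each library, and that of genes whose groups do not overlap could not turn.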
